A study of Homo sapiens with 6 samples.

Results

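The genes described here are 9 integrin subunits (ITGB1, ITGB3, ITGB5, ITGAV, ITGA5, ITGA2, ITGA3, ITGA6 and ITGA7) and the hyaluronan receptor gene CD44. They were chosen by gene symbol, with earlier results of these data known. All 10 were found among the 12654 genes of the deposited expression table. RNA-seq was done on LX2, an established human cell line of hepatic stellate origin. In fibrosis such cells turn into contractile myofibroblasts that deposit matrix. The study asked, by its title, how deficiency of METTL3, the enzyme that writes N6-methyladenosine (m6A) on RNA, bears on stellate cell activation. The 6 libraries fall into 3 groups of 2: cells with the hairpin shMETTL3-1, cells with the hairpin shMETTL3-2, and control cells with shLuc, a hairpin against firefly luciferase. All groups carried a pLKO.1 lentiviral vector made in HEK293T cells, and all were infected with polybrene, selected with puromycin and grown in high-glucose DMEM with fetal bovine serum. Each hairpin is a single construct, and the labels do not say whether replicate libraries were grown as separate cultures. The p-values therefore cover the spread between these libraries alone, and that spread may be technical.

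Integrins are receptors for the extracellular matrix, each built from 1 alpha and 1 beta subunit. The alpha subunit largely sets the ligand, while the short cytoplasmic tail of the beta subunit binds talin and kindlin, which link the receptor to actin. ITGB1 pairs with many alpha subunits, whereas ITGB3 and ITGB5 pair with ITGAV, and integrins that hold ITGAV can release active TGF-beta from its latent complex. CD44 is not an integrin: it binds hyaluronan, and its cytoplasmic tail is tied to actin by ezrin, radixin and moesin.

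Values are the deposited scores. All 6 columns share nearly 1 distribution, sharing a top value of 72566 and a median of 552, so a score is nearly a rank within its library. Depth per library is unknown, and a change of the whole transcriptome would be invisible. Every score of ITGB1, ITGA5, ITGA3 and CD44 had 10 genes of its library within 1% of it, itself included, with wider gaps above and below. Score differences between genes are not compared, since the table does not say whether gene length was taken into account. Positions given below are those of the 1 deposited transcript per gene, not of the whole gene. That transcript spans 45.2% of the annotated gene for ITGA5 and 48.8% for ITGB1, the shortest shares of the 10 genes. For METTL3 it spans 43.1%. Among other integrin subunits described below it spans 2.7% for ITGA4, 10.6% for ITGAE, 14.4% for ITGA2B and 17.5% for ITGB2. METTL3 scored 274 and 256 with shMETTL3-1 and 148 and 132 with shMETTL3-2, against 536 and 552 with shLuc (log2 -1.04 and -1.95, called with both). Of 13 markers of stellate cells and myofibroblasts, 12 were listed and 11 scored at least 100 in every library. So did 1 of 2 listed hepatocyte markers and 2 of 4 listed leukocyte and Kupffer cell markers. This limit lies below the median score and does not by itself set cell types apart. Fold changes are on the log2(score + 1) scale, fitted by limma over 12413 genes, and a gene was called at a Benjamini-Hochberg adjusted p under 0.05.

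**Figure D1:**
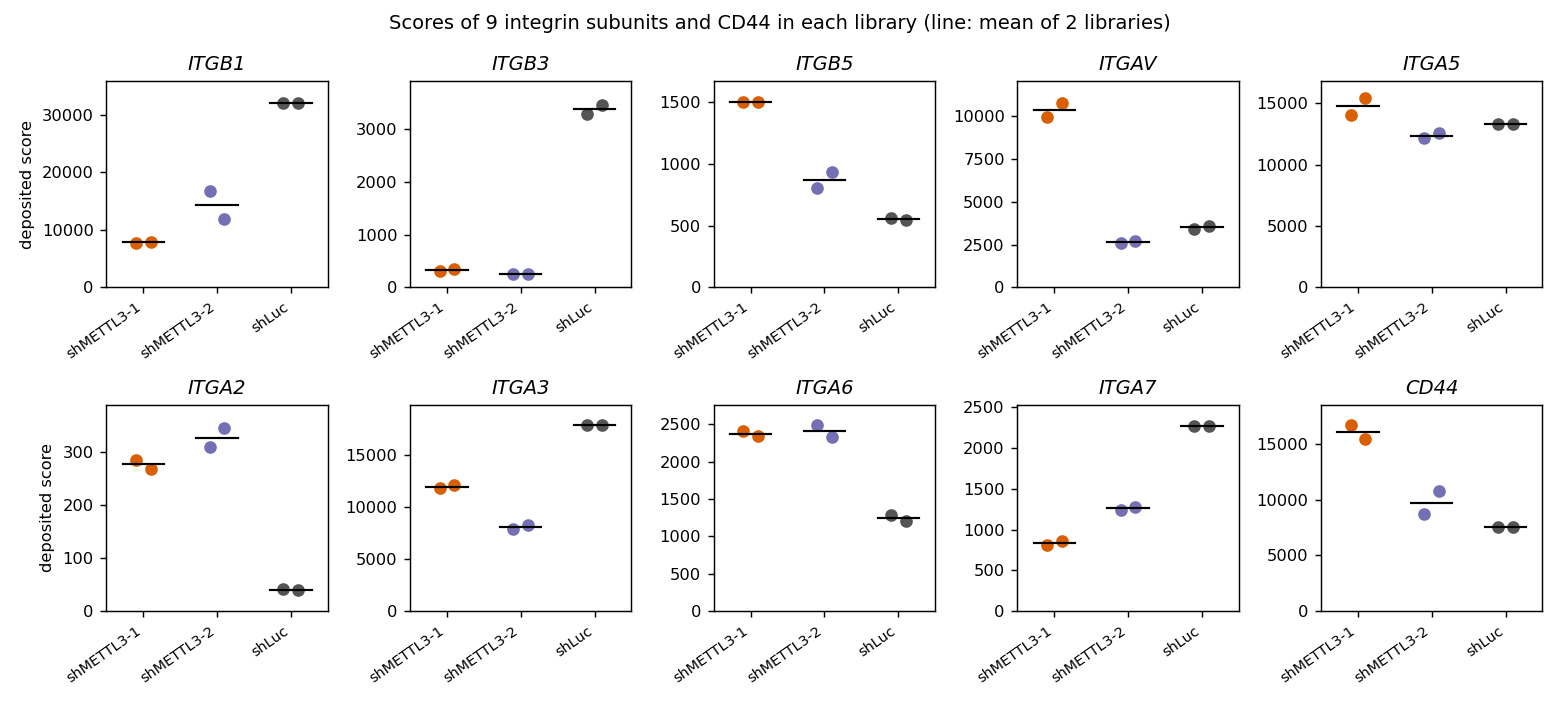
Deposited score (linear axis from 0) of each of the 10 genes in the 2 libraries of shMETTL3-1, shMETTL3-2 and shLuc; points are libraries and lines are means of 2. ITGB3 sits between 252 and 340 in the hairpin libraries, against 3296 and 3465 with shLuc, while ITGA2 sits between 268 and 344, against 42 and 39.

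With shMETTL3-1, 9 of the 10 genes were called, 5 higher and 4 lower, beside 58.7% of all genes tested (30.3% higher and 28.4% lower). With shMETTL3-2, 9 were called as well, 4 higher and 5 lower, beside 59.6% of all genes (30.8% higher and 28.8% lower). With both hairpins in the same direction, 4 genes were called higher (ITGB5, ITGA2, ITGA6 and CD44) and 4 lower (ITGB1, ITGB3, ITGA3 and ITGA7), beside 15.7% and 13.4% of all genes. All 4 hairpin libraries lay above both shLuc libraries for 4 genes, beside 23.2% of all genes, and below them for 4 genes, beside 20.6%. The hairpins share their control libraries, so these are not independent repeats. ITGAV was called in opposite directions, as were 10.5% of all genes, and ITGA5 was not called with either hairpin. The median size of change, regardless of sign, was 1.43 on the log2 scale for the 10 genes with shMETTL3-1 and 0.90 with shMETTL3-2, beside 0.35 and 0.36 for all genes tested. Because the 10 genes were chosen with earlier results known, these shares and sizes are descriptions of a set that was not picked blind. RNA was measured in bulk, so fewer cells that express a gene and less RNA per cell cannot be told apart.

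**Figure D2:**
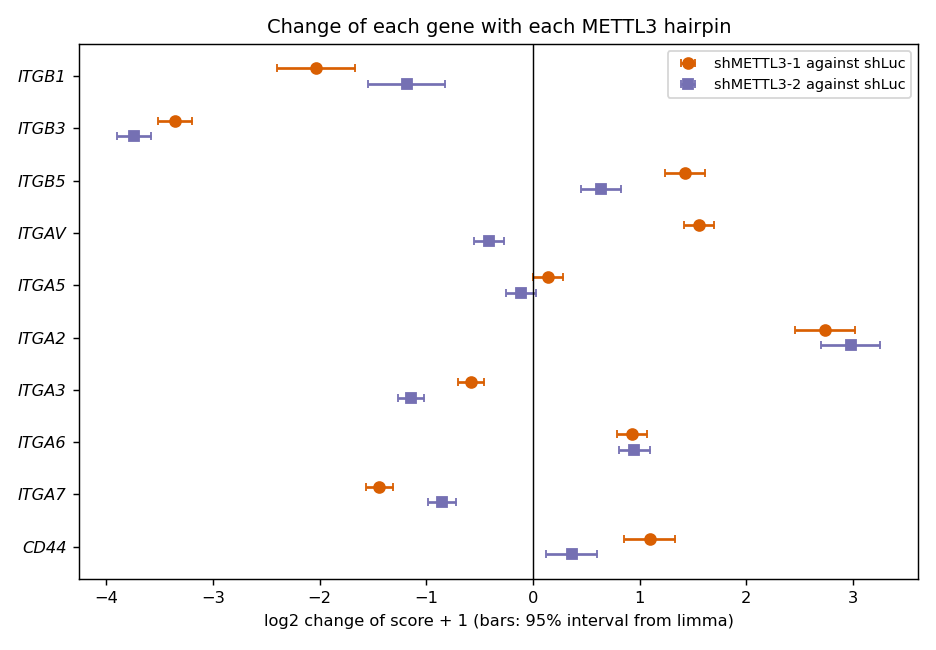
Log2 change of score + 1 for each gene with shMETTL3-1 (circles) and shMETTL3-2 (squares) against shLuc, with 95% intervals from limma over 2 libraries per group. ITGB3 lies farthest left at -3.36 and -3.74, ITGA2 farthest right at 2.74 and 2.98, and only ITGAV has both intervals clear of 0 on opposite sides.

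Among the beta subunits, ITGB3 (ENSG00000259207; hg19 chromosome 17, 45331212 to 45389182, plus strand) had the largest change of the 10 genes. It pairs with ITGAV to form a receptor for vitronectin, fibronectin and osteopontin. Its score was 318 and 340 with shMETTL3-1 and 253 and 252 with shMETTL3-2, against 3296 and 3465 with shLuc. Every hairpin library was about an order of magnitude below both control libraries. The score was 10.2-fold lower with shMETTL3-1 (log2 -3.36, SE 0.068, limma adjusted p = 5e-07) and 13.3-fold lower with shMETTL3-2 (log2 -3.74, SE 0.068, adjusted p = 3.77e-07). In the mean of both hairpins, 31 of the 12413 genes tested had a larger fall. ITGB3 shares exons, on the same strand, with a second annotated protein-coding model (ENSG00000259753), and how reads in shared exons were assigned is not given in the sources used here. Both listed endothelial markers of the 4 in the marker list, CDH5 and VWF, were low and moved alongside: their summed score was 57 and 89 with shMETTL3-1 and 53 and 55 with shMETTL3-2, against 268 and 236 with shLuc, and their part in the fall of ITGB3 was not tested.

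ITGB1 (ENSG00000150093; chromosome 10, 33189320 to 33247137, minus strand), the common partner of the collagen, laminin and fibronectin receptors, was also called lower with each hairpin. Its libraries scored 7693 and 7910 with shMETTL3-1 and 16692 and 11834 with shMETTL3-2, against 31952 in both shLuc libraries. The groups did not overlap, and the shMETTL3-2 libraries lay between the others and were the most spread. The fall was 4.10-fold with shMETTL3-1 (log2 -2.03, SE 0.15, limma adjusted p = 7.4e-05) and 2.27-fold with shMETTL3-2 (log2 -1.18, SE 0.15, adjusted p = 0.000747). The control level is such a value: leaving out scores within 1% of it, the nearest score above is 44404 and the nearest below is 27620, gaps of 0.47 and 0.21 on the log2 scale, so the tie between the control libraries is not a measured precision. ITGB1 has an annotated processed pseudogene, ITGB1P1, on chromosome 19, and how reads common to both were placed is not given. The call with shMETTL3-2 held when either of its libraries was left out (log2 -1.43 without replicate 1 and -0.94 without replicate 2).

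ITGB5 (ENSG00000082781; chromosome 3, 124480795 to 124606144, minus strand), which forms another vitronectin receptor with ITGAV, moved the other way. It scored 1500 in both shMETTL3-1 libraries and 806 and 934 with shMETTL3-2, against 566 and 548 with shLuc. All hairpin libraries lay above both controls, and those of shMETTL3-1 lay highest. The rise was 2.69-fold with shMETTL3-1 (log2 1.43, SE 0.080, limma adjusted p = 1e-05) and 1.56-fold with shMETTL3-2 (log2 0.64, SE 0.080, adjusted p = 0.000398).

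Among the alpha subunits that recognise the RGD sequence of their ligands, ITGAV (ENSG00000138448; chromosome 2, 187454792 to 187545628, plus strand) set the hairpins apart. It scored 9952 and 10768 with shMETTL3-1 and 2573 and 2700 with shMETTL3-2, against 3438 and 3590 with shLuc. The shMETTL3-1 libraries lay well above the controls and the shMETTL3-2 libraries somewhat below them, with no overlap. ITGAV rose 2.95-fold with shMETTL3-1 (log2 1.56, SE 0.059, limma adjusted p = 2.33e-06), and it fell 1.33-fold with shMETTL3-2 (log2 -0.41, SE 0.059, adjusted p = 0.000747). Set directly against shMETTL3-1, shMETTL3-2 gave -1.97 on the log2 scale (SE 0.059, adjusted p = 9.31e-07), the largest of the 10 genes.

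ITGA5 (ENSG00000161638; chromosome 12, 54789045 to 54799900, minus strand), which with ITGB1 forms the main fibronectin receptor, scored 14074 and 15404 with shMETTL3-1 and 12138 and 12588 with shMETTL3-2, against 13350 in both shLuc libraries. Neither hairpin passed the threshold: the log2 change was 0.14 with shMETTL3-1 (95% interval -0.003 to 0.28, limma adjusted p = 0.0837) and -0.11 with shMETTL3-2 (-0.26 to 0.033, adjusted p = 0.157). These intervals bound any change at well under 1 log2 unit, but the gaps to the nearest scores more than 1% away ran from 0.033 to 0.127 on the log2 scale in the 6 libraries, close to the changes themselves. The hairpins differed by -0.25 (adjusted p = 0.00886), a call that was lost without shMETTL3-1 replicate 2 (log2 -0.19).

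ITGA2 (ENSG00000164171; chromosome 5, 52285156 to 52390609, plus strand), the alpha subunit of a collagen receptor, had the largest rise of the 10 genes. It scored 284 and 268 with shMETTL3-1 and 308 and 344 with shMETTL3-2, against 42 and 39 with shLuc. The hairpin libraries were all several-fold above the controls. The rise was 6.68-fold with shMETTL3-1 (log2 2.74, SE 0.12, limma adjusted p = 3.63e-06) and 7.87-fold with shMETTL3-2 (log2 2.98, SE 0.12, adjusted p = 2.69e-06). In the mean of both hairpins, 71 of the 12413 genes tested had a larger rise. Genes were tested when their scores averaged 50 or more over the 6 libraries. The shLuc mean of ITGA2 was 40.5, so it passed that limit only through its hairpin libraries. With 50 instead of 1 added to each score, its log2 changes were 1.85 and 2.05. The direct contrast of shMETTL3-2 with shMETTL3-1 did not pass (log2 0.24, 95% interval -0.041 to 0.52, adjusted p = 0.119).

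The 3 laminin-binding alpha subunits did not move together. ITGA3 (ENSG00000005884; chromosome 17, 48133332 to 48154359, plus strand) scored 11830 and 12138 with shMETTL3-1 and 7907 and 8264 with shMETTL3-2, against 17900 in both shLuc libraries. It fell with shMETTL3-1 (log2 -0.58, SE 0.052, limma adjusted p = 8.13e-05) and fell further with shMETTL3-2 (-1.15, adjusted p = 4.18e-06), and the difference between the hairpins of -0.57 was itself called (adjusted p = 7.37e-05). ITGA7 (ENSG00000135424; chromosome 12, 56078352 to 56101485, minus strand), best known from muscle, scored 812 and 862 with shMETTL3-1 and 1244 and 1274 with shMETTL3-2, against 2270 in both shLuc libraries. It fell with both hairpins (log2 -1.44 and -0.85, adjusted p = 2.44e-06 and 1.8e-05), and here shMETTL3-1 had the lower scores (difference 0.59, adjusted p = 8.52e-05).

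ITGA7 overlaps exons of the protein-coding genes BLOC1S1, METTL7B and ENSG00000258311 on the opposite strand, and whether reads were counted by strand is not given. Exons of ITGB1, ITGAV, ITGA5, ITGA6 and CD44 overlap noncoding genes on the opposite strand, so reads of the partners cannot be told apart without strand. Of the protein-coding partners of ITGA7, BLOC1S1 alone has scores in the deposited table. It scored 486 and 478 with shMETTL3-1 and 578 and 598 with shMETTL3-2, against 587 and 578 with shLuc. ITGA6 (ENSG00000091409; chromosome 2, 173292082 to 173339705, plus strand), which pairs with ITGB1 or ITGB4, scored 2411 and 2339 with shMETTL3-1 and 2495 and 2328 with shMETTL3-2, against 1292 and 1202 with shLuc. The hairpin libraries overlapped each other and lay above both controls. ITGA6 rose by 0.93 with shMETTL3-1 and by 0.95 with shMETTL3-2 (SE 0.061, adjusted p = 1.98e-05 and 1.74e-05), and the difference between the hairpins was 0.02 (95% interval -0.12 to 0.17, adjusted p = 0.779).

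CD44 (ENSG00000026508; chromosome 11, 35160417 to 35253949, plus strand) scored 16704 and 15424 with shMETTL3-1 and 8687 and 10760 with shMETTL3-2, against 7510 in both shLuc libraries. All hairpin libraries were above the controls, and those of shMETTL3-1 were the highest. CD44 rose 2.14-fold with shMETTL3-1 (log2 1.10, SE 0.10, limma adjusted p = 0.000115) and 1.29-fold with shMETTL3-2 (log2 0.36, SE 0.10, adjusted p = 0.0175). The direct contrast of shMETTL3-2 with shMETTL3-1 was -0.73 (adjusted p = 0.000676). The rise with shMETTL3-2 was not called when shLuc replicate 1, shLuc replicate 2 or shMETTL3-2 replicate 2 was left out (log2 0.36, 0.36 and 0.21). It was also not called without the trend and robust moderation (limma adjusted p = 0.0513). Its change was 0.52 without shMETTL3-2 replicate 1.

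The average over the hairpins, set against shLuc, does not require each hairpin to move a gene. It called 9 of the 10 genes, 5 higher and 4 lower, beside 58.3% of all genes (29.5% higher and 28.8% lower). ITGAV stood among the 5 higher genes (log2 0.57) although shMETTL3-2 lowered it. With the 4 hairpin libraries as a single group, so that the difference between hairpins enters the spread, 5 genes were called, beside 12% of all genes (6.78% higher and 5.26% lower): ITGA2 and ITGA6 higher, ITGB1, ITGB3 and ITGA7 lower. ITGB5 (adjusted p = 0.0891), ITGAV (0.669), ITGA3 (0.0659) and CD44 (0.176) lost their calls in that fit. Between the hairpins, 8 of the 10 genes differed, 2 higher and 6 lower with shMETTL3-2, beside 63% of all genes (31.9% higher and 31.1% lower).

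Ratios within a library show how unequally partner subunits moved. ITGAV and ITGB3 encode the subunits of 1 receptor, and the log2 ratio of ITGAV to ITGB3 was higher than its shLuc mean by 4.92 ± 0.012 with shMETTL3-1 and by 3.32 ± 0.053 with shMETTL3-2, against 0 ± 0.007 with shLuc (SD, n = 2). The ratio of ITGB5 to ITGB3, the alternative beta partners of ITGAV, was higher by 4.78 ± 0.068 with shMETTL3-1 and by 4.38 ± 0.15 with shMETTL3-2, against 0 ± 0.084 with shLuc, a 27.6-fold and a 20.8-fold difference. The ratio of ITGAV to ITGB5 stayed near its control value with shMETTL3-1 (0.13 ± 0.080), lay below it with shMETTL3-2 (-1.05 ± 0.10), and varied by ± 0.077 with shLuc. These ratios were not tested.

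For the partners of ITGB1, the log2 ratio of ITGA2 to ITGB1 was higher by 4.77 ± 0.087 with shMETTL3-1 and 4.16 ± 0.46 with shMETTL3-2, against 0 ± 0.074 with shLuc. The ratio of ITGA5 to ITGB1 was higher by 2.17 ± 0.064 with shMETTL3-1 and 1.07 ± 0.39 with shMETTL3-2, with tied control libraries. ITGA3 to ITGB1 was higher by 1.46 ± 0.002 with shMETTL3-1, but with shMETTL3-2 its libraries lay on both sides of the control (-0.24 and 0.32). ITGA7 to ITGB1 changed least with shMETTL3-1 among the 6 alpha subunits set against ITGB1 (0.59 ± 0.033), and was 0.34 ± 0.38 with shMETTL3-2. The wide spread with shMETTL3-2 in all of these comes with that of ITGB1 itself.

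**Figure D3:**
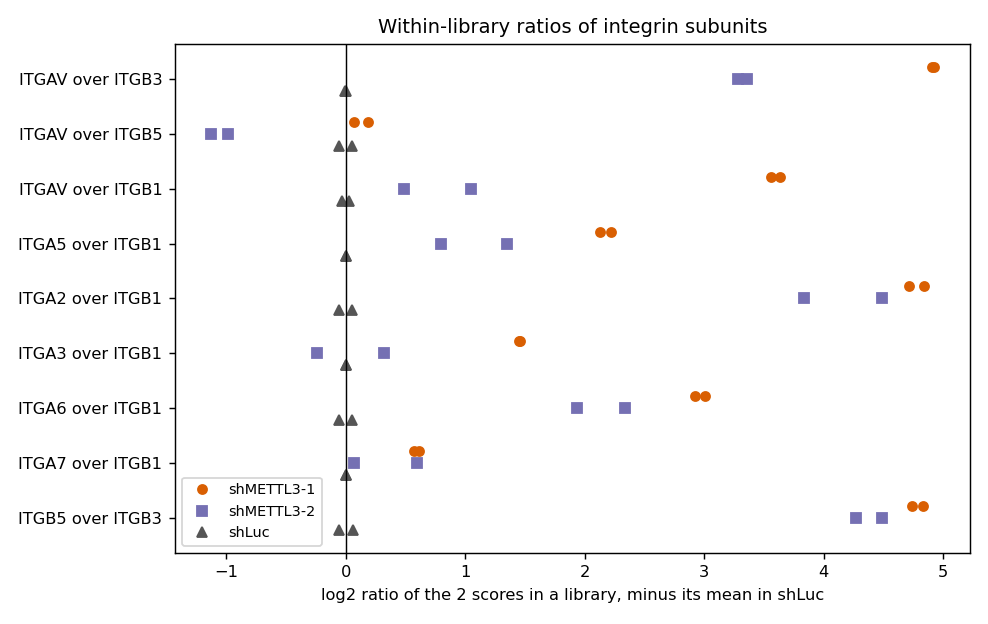
Log2 ratio of the scores of 2 integrin subunits within each library, minus the mean of that ratio in shLuc, for shMETTL3-1 (circles), shMETTL3-2 (squares) and shLuc (triangles), 2 libraries each. The ratio of ITGAV to ITGB3 is shifted by 4.92 and 3.32, whereas that of ITGAV to ITGB5 is shifted by 0.13 and -1.05.

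Of 17 other integrin subunits in a list of the family, 8 were in the table and 7 had a mean score high enough to be tested. With shMETTL3-1, 4 of these were called lower and 0 higher, beside 28.4% and 30.3% of all genes. With shMETTL3-2, 1 was called lower and 1 higher, beside 28.8% and 30.8% of all genes. Their median log2 change was -0.30 with shMETTL3-1 and 0.18 with shMETTL3-2, beside 0.01 and 0.01 for all genes tested. ITGA1, a collagen-binding subunit whose gene lies next to ITGA2 on chromosome 5, scored 506 and 548 with shMETTL3-1 and 1020 and 980 with shMETTL3-2, against 864 and 904 with shLuc. It was called lower with shMETTL3-1 (log2 -0.75, limma adjusted p = 9.47e-05), and its change with shMETTL3-2 was 0.18 (adjusted p = 0.0582), a change that was called higher on normal scores of ranks (adjusted p = 0.0399).

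ITGA4, a subunit best known from leukocytes, scored 616 and 618 with shMETTL3-1 and 1098 in both shMETTL3-2 libraries, against 760 and 694 with shLuc. It was called in opposite directions (log2 -0.23, adjusted p = 0.0189, and 0.60, adjusted p = 0.000233). The fall was not called without shLuc replicate 1 (adjusted p = 0.0958), shMETTL3-1 replicate 1 (0.0786) or shMETTL3-1 replicate 2 (0.0756). ITGA10, another collagen-binding subunit, scored 35 in both shMETTL3-1 libraries and 104 and 110 with shMETTL3-2, against 63 and 93 with shLuc. It was called lower with shMETTL3-1 (log2 -1.11, adjusted p = 0.00372). Its change with shMETTL3-2 was 0.48 (adjusted p = 0.0964), which was called without shLuc replicate 2 (log2 0.75, adjusted p = 0.0235). ITGAE was the subunit called lower with both hairpins (log2 -0.32, adjusted p = 0.0367, and -0.43, adjusted p = 0.0116). Its call with shMETTL3-1 was lost without either shLuc library (0.179 and 0.0556) or either shMETTL3-1 library (0.0544 and 0.202), and that with shMETTL3-2 without shLuc replicate 1 (0.0753) or shMETTL3-2 replicate 2 (0.0586).

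ITGB4, the other partner of ITGA6, lay at 0.21 with shMETTL3-1 (adjusted p = 0.203) and 0.35 with shMETTL3-2 (adjusted p = 0.0511), where it was called without shMETTL3-2 replicate 1 (log2 0.49, adjusted p = 0.0242). ITGA11 lay at -0.30 and 0.03 (adjusted p = 0.118 and 0.862) and ITGA2B at 0.05 and -0.24 (adjusted p = 0.78 and 0.183). Without the trend and robust moderation, ITGA2B was called lower with shMETTL3-2 (limma adjusted p = 0.0308). In that fit it was also called lower with shMETTL3-2 than with shMETTL3-1 (log2 -0.297, adjusted p = 0.016). ITGB2, the leukocyte beta subunit, fell under the limit on mean score, with 11 and 7 with shMETTL3-1 and 82 and 92 with shMETTL3-2, against 20 and 24 with shLuc. The 4 listed leukocyte and Kupffer cell markers, which include ITGB2, had summed scores of 1525 and 1174 with shMETTL3-1 and 1528 and 1543 with shMETTL3-2, against 887 and 865 with shLuc, and their part in the ITGA4 scores was not tested. The higher sums came from CD68, at 1150 and 1005 with shMETTL3-1 and 1053 and 1083 with shMETTL3-2, against 392 and 360 with shLuc. PTPRC went the other way, with 259 and a listed 0 with shMETTL3-1 and 255 and 214 with shMETTL3-2, against 317 and 298 with shLuc. CD14 scored 105 and 162 with shMETTL3-1 and 138 and 154 with shMETTL3-2, against 158 and 183 with shLuc.

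Genes that act with these receptors were counted in 5 further lists. Of 29 integrin activators and tail-binding linkers, 4 were higher and 8 lower with both hairpins, beside 15.7% and 13.4% of all genes. RAPGEF1, an exchange factor that activates RAP1 (log2 0.47 and 1.25), and the GTPase RAP1B itself (0.61 and 0.45) rose, while LIMS2, an adaptor of integrin-linked kinase (-1.76 and -0.91), and the tail-binding protein TNS1 (-0.87 and -0.85) fell. Of 20 matricellular and RGD ligands and their regulators, 2 were higher and 9 lower with both hairpins. Genes at the top score of 72566 in any library were left out of the ranking by size. Among them, TNC scored 3266 and 3311 with shMETTL3-1 and 7093 and 9719 with shMETTL3-2, against 72566 in both shLuc libraries. FN1, fibronectin, scored 72566 in all 6 libraries, so a change above that ceiling could not be seen. Among the ranked genes, VTN, vitronectin, is a ligand of the receptors that ITGAV forms with ITGB3 or ITGB5. It scored 88 and 82 with shMETTL3-1 and 135 and 140 with shMETTL3-2, against 712 and 646 with shLuc. Its log2 change was -2.98 and -2.29 (limma adjusted p = 1.99e-06 and 4.55e-06).

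FBN2, an RGD-containing fibrillin, also fell (log2 -1.59 and -1.69), whereas TGFB1, whose latent form binds integrins with ITGAV, rose (1.00 and 0.69), as did the sheddase ADAM17 (1.45 and 1.80). Of 10 laminin chains, 2 were higher and 2 lower with both hairpins, beside 15.7% and 13.4% of all genes. LAMA4 rose mainly with shMETTL3-1 (2.04 and 0.48) and LAMA1 mainly with shMETTL3-2 (0.23 and 1.81). LAMA5, a strong ligand of the ITGA3 and ITGA6 receptors, fell mainly with shMETTL3-2 (-0.29 and -1.80), and LAMB2 fell with both (-0.72 and -0.43). For LAMA4, LAMA1 and LAMA5 the difference between the hairpins was called (adjusted p = 5.03e-06, 9.41e-07 and 1.41e-06).

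Of 17 lateral membrane partners of integrins, 2 were higher and 7 lower with both hairpins, beside 15.7% and 13.4% of all genes. CD47, a partner of the ITGAV and ITGB3 receptor (log2 0.64 and 1.09), and CD46 (0.51 and 0.90) rose. SDC4, the syndecan that acts with the fibronectin receptor in focal adhesions (-2.26 and -2.06), and LGALS1, galectin-1 (-1.995 and -0.30), fell. The LGALS1 call with shMETTL3-2 was lost without shLuc replicate 1 (adjusted p = 0.0647), shLuc replicate 2 (0.0642) or shMETTL3-2 replicate 1 (0.0582). Among 18 partners of CD44 and genes of hyaluronan turnover, 2 were higher and 5 lower with both hairpins, beside the same 15.7% and 13.4%. KIAA1199, which promotes hyaluronan breakdown (1.92 and 1.15), and MMP14, a membrane protease that can cleave CD44 (1.87 and 0.84), rose. HAS3, a hyaluronan synthase (-1.95 and -2.04), and MSN, moesin (-1.08 and -2.65), fell. Other genes of this list differed between the hairpins. HAS2, another hyaluronan synthase, scored 47 and 60 with shMETTL3-1 and 633 and 646 with shMETTL3-2, against 178 and 136 with shLuc. TMEM2 scored 297 and 371 with shMETTL3-1 and 3730 in both shMETTL3-2 libraries, against 3586 and 3456 with shLuc.

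**Figure D4:**
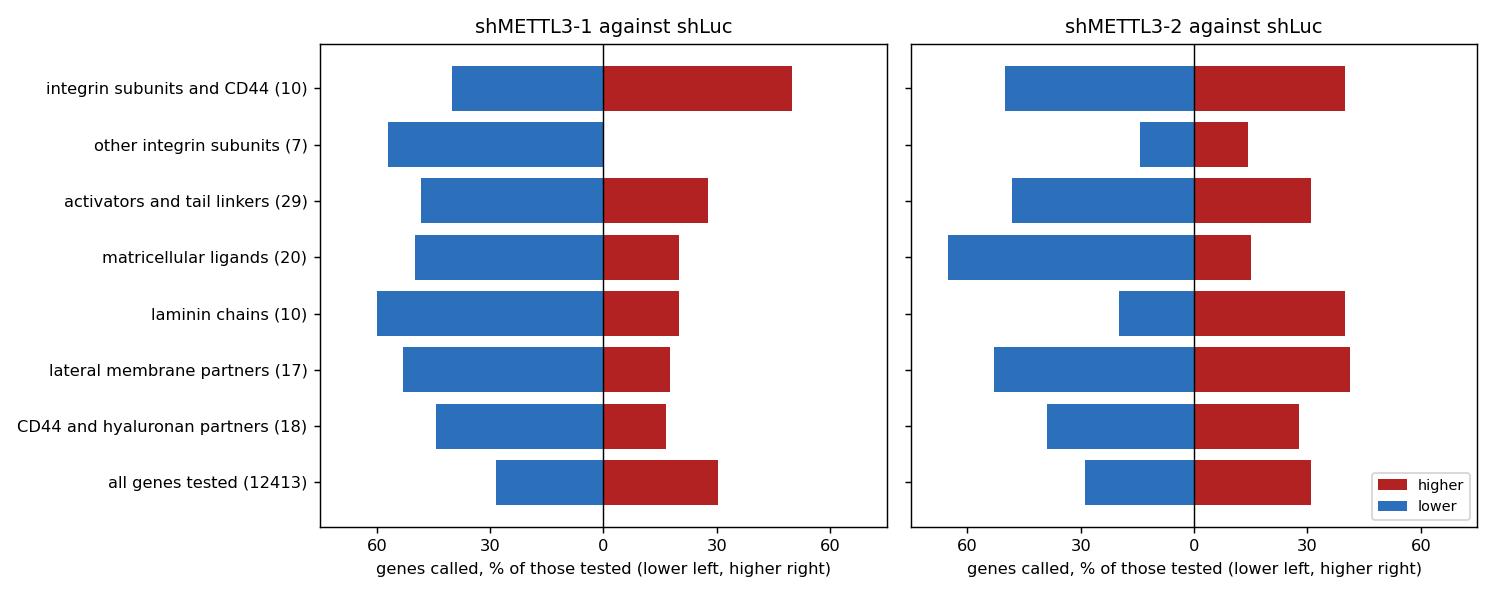
Share of tested genes called lower (bars to the left) and higher (bars to the right) with shMETTL3-1 and with shMETTL3-2 against shLuc, for the integrin subunits and CD44, for 6 related lists and for all 12413 genes tested; the number of genes stands in brackets. Matricellular ligands were lower in 10 and 13 of 20 genes, beside 28.4% and 28.8% of all genes. They were higher in 4 and 3 of 20, beside 30.3% and 30.8% of all genes.

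Likeness to the 8 genes called in 1 direction with both hairpins was measured as the root mean square difference, over the 6 libraries, of log2(score + 1) centred on the shLuc mean, among the 12188 tested genes that scored at least 10 in every library. For ITGB3 the nearest patterns were AIF1L (0.206), PITPNM3 (0.327) and MAP6 (0.378). For ITGA2 they were MCU (0.108), DOCK4 (0.208) and CHIC1 (0.267), and for ITGB1 they were PSG9 (0.134), PREP (0.157) and HK2 (0.166). The smaller changes had closer neighbours: BICC1 stood 0.032 from ITGA3, OXA1L 0.045 from ITGA6, MYEF2 0.055 from ITGA7, SPATS2 0.068 from ITGB5 and DESI2 0.069 from CD44. These distances are descriptions over libraries that share their controls.

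Promoter sequences of RefSeq (GRCh38.p14, from 250 bases before to 50 after a start) were matched for 7 of the 10 genes in 12 windows, and ITGA3, ITGA7 and ITGB3 had no entry. The 3 below are shown because they belong to the gene with the largest rise, to the beta subunit that fell with a matched promoter, and to the subunit with no call against shLuc. Capitals mark matches, on either strand, to GGAATG (the core bound by TEAD factors), TGANTCA (AP-1) and GGGCGG (SP1). The ITGA2 window is chr5:52989102-52989401 on the plus strand, that of ITGB1 is chr10:32958181-32958480 on the minus strand, and that of ITGA5 is chr12:54419217-54419516 on the minus strand.
ITGA2: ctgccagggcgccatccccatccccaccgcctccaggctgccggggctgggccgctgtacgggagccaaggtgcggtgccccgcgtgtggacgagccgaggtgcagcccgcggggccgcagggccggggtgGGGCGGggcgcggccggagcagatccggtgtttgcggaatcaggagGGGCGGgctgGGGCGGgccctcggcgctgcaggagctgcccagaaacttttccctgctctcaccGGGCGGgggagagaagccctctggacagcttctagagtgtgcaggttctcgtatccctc
ITGB1: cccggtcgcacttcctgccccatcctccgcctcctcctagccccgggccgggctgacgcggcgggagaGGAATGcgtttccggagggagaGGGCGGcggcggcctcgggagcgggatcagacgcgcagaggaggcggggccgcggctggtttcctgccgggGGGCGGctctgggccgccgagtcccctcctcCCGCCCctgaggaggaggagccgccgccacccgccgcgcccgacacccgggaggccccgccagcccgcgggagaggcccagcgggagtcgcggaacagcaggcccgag
ITGA5: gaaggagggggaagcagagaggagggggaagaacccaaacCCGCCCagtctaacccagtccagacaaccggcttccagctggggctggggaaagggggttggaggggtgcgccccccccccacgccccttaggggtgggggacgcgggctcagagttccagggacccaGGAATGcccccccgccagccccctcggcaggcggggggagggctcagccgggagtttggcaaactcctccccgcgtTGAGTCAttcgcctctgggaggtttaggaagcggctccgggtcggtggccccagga
The ITGA2 window held 4 SP1 matches and neither of the other motifs. The ITGB1 window held 1 TEAD match, whose first base lies 182 bases before the start, and 3 SP1 matches. The second ITGB1 window in the table (chr10:32935509-32935808, not printed) held no match to any of the 3 motifs. The ITGA5 window held 1 TEAD match at 82 bases before the start, 1 AP-1 match at 6 bases before it and 1 SP1 match. The deposited ITGA5 transcript starts 13150 bases downstream of the annotated gene start, so this window need not be its promoter. No matches of different motifs overlapped in these windows. Over the 12 windows, 2 held the TEAD motif, 1 the AP-1 motif and 9 the SP1 motif, and among all 35116 windows of the table the shares were 14%, 7.7% and 45%. Several genes have more than 1 window, and the ITGA6 windows overlap and share an SP1 match, so the windows are not separate units. A match is a description of the letters and not a bound site.

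The METTL3 complex methylates adenosines in short sequence contexts of which GGACU is a common form. In the GENCODE release 44 canonical transcripts on GRCh37, GGACT occurred 9 times in ITGB5 (2.03 per kb) and 7 times in ITGA5 (1.65 per kb), the highest densities of the 10 genes. It occurred 5 times in ITGB3 (0.842 per kb), 4 times in ITGB1 (1.07 per kb) and 3 times in ITGA2 (0.383 per kb), the lowest density. The median over 12031 tested genes with such a transcript was 0.928 per kb, and 4 of the 10 genes lay above it. For ITGA3, ITGA5, ITGA6, ITGA7 and CD44 the canonical transcript was not the deposited one. Whether motif density bears on the changes was not tested. No m6A measurement is part of the table, so which of these letters carry the mark is not known here.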

How the data were processed

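Per the labels' protocols, hg19 was the genome for read mapping, and DESeq2 is named without a role per the submitters' processing notes. No aligner, counter or annotation is stated in the labels or headers. The deposited values are called counts in the table's name but are treated as scores, because after sorting 87.3% of ranks hold the same value in all 6 columns, with totals of 16535130 to 16536605. Depth is therefore unknown, and no count model was used. The table gives 1 transcript and its hg19 position per gene, often shorter than the annotated gene.

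Of 12654 genes, the 12413 whose scores averaged 50 or more were fitted as log2(score + 1) with limma 3.58.1 in R 4.3.3: 1 mean per group, mean-variance trend, robust moderation, all 6 libraries sharing 1 spread (3 residual degrees of freedom), two-sided p adjusted by Benjamini-Hochberg over all genes tested. The fit was tested on simulated data. Alternatives were pseudocounts of 10 and 50, other filters, leaving out each library, a replicate block, no trend or robust moderation, rank scores, pairwise fits and the hairpins as 1 group, plus 2 chosen after seeing the data. In the related lists, the 2 largest rises and the 2 largest falls in the mean of both hairpins were named. They were taken among genes called in 1 direction with both, at least 10 in every library and below the column maximum. All other integrin subunits were named, and TNC, FN1, HAS2 and TMEM2 were added outside this rule. The genes and lists were chosen with earlier results of these data known.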

Additional observations from a re-analysis of the deposited data

Results flagged for a closer look

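For 8 of the 10 genes the effects of the hairpins differed from each other by the limma test of shMETTL3-2 against shMETTL3-1 (2 libraries per group), beside 63% of all genes tested. ITGAV had the largest difference, -1.97 on the log2 scale, from changes of -0.41 with shMETTL3-2 and 1.56 with shMETTL3-1, and was the gene of the 10 called in opposite directions. ITGB1 differed by 0.85 and ITGA7 by 0.59, both falling less with shMETTL3-2. ITGB5 differed by -0.79 and CD44 by -0.73, both rising less with shMETTL3-2. ITGA3 differed by -0.57 and ITGB3 by -0.38, both falling further with shMETTL3-2. ITGA5 differed by -0.25, from changes of -0.11 and 0.14 that were not called. METTL3 itself was lower with shMETTL3-2 than with shMETTL3-1 (log2 -0.92, adjusted p = 0.00016), and its part in these differences was not tested.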

How the results depend on the processing

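Of 640 single values of the 10 genes under 17 alternatives, 628 kept their direction and their side of the threshold, 9 lost the call and 3 turned round. Those that turned were differences close to 0 without a call: ITGA5 in the mean of both hairpins (-0.017 without shMETTL3-1 replicate 2, leave-one-out range to 0.048) and ITGA6 between the hairpins (-0.001 without shMETTL3-1 replicate 2 and -0.029 without shMETTL3-2 replicate 1, range to 0.071). The count in the mean of both hairpins was 9, and 5 with the hairpin libraries as one group, where the difference between hairpins enters the spread; over all genes the counts were 7237 and 1494. Leaving out 1 library gave 9 called genes with shMETTL3-1 in each case, 8 to 9 with shMETTL3-2, 7 to 8 between the hairpins and 7 to 8 with both hairpins.

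The remaining losses were CD44 with shMETTL3-2 and ITGA5 between the hairpins, described above. With a pseudocount of 50 the log2 changes of ITGA2 were 1.85 and 2.05, smaller by construction. Replicate numbers did not pair the libraries (correlation of deviations 0.015, 0.037 and 0.047 between groups), and with the replicate block 9, 9, 9 and 8 genes were called, as without it. Among the other subunits the block added calls for ITGA11 with shMETTL3-1 (log2 -0.30, adjusted p = 0.0131) and between the hairpins (0.33, 0.00753), and for ITGB4 with shMETTL3-2 (0.35, 0.0472). Some values of the other genes named by rule turned without a call when 1 library was left out. By leave-one-out range these were ITGA11 with shMETTL3-2 (-0.096 to 0.162) and ITGA2B with shMETTL3-1 (-0.016 to 0.123). Between the hairpins they were TNS1 (-0.012 to 0.047), HAS3 (-0.338 to 0.159), FBN2 (-0.205 to 0.007) and ITGAE (-0.212 to 0.003). Of 384 counts over lists, 373 stayed within 1.5 times. With the hairpins as one group the 6 lists had 0, 5, 5, 1, 6 and 4 genes called in the mean, against 3, 21, 17, 9, 15 and 13, in the order other subunits, linkers, ligands, laminins, lateral partners and CD44 partners. The other 5 were the other integrin subunits, with 2 called against 4 for shMETTL3-1 without shLuc replicate 1 or either of its own libraries, and 1 against 2 for shMETTL3-2 without shLuc replicate 1 or shMETTL3-2 replicate 2. With 2 libraries per group and no depth, counting error could not be computed.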
